A study of Mus musculus with 12 samples.

Results

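The genes described here are 10 members of the ERK feedback and target programme: the receptor-signal inhibitors Spry1, Spry2, Spry4, Spred1 and Spred2, the phosphatase Dusp6, the repressor Erf, the early response gene Ier3 and the transcription factors Etv4 and Etv5. They were found by Entrez ID among 27179 gene IDs counted in every library, and all 10 were among the 16475 genes with enough counts to be tested. Spry2, Erf and Ier3 were chosen by their lower levels in knockout than in control retina at 12 months. The other 7 were listed for their place in the pathway, with earlier results of these data known. Values of the 12-month comparison are therefore given as a description, with no test, for all 10 genes. The libraries came from retinal tissue of mice with a deletion of Abca1 in glia (genotype Glia-ABCA1KO, also written Astro-KO, here KO) and from control mice (genotype Control). The 4 groups were KO at 12 months, control at 12 months, KO at 3 months and control at 3 months, with 3 libraries each. The promoter that drives the deletion, the strain, the sex and any pooling of animals were not named in the sources used here. The labels do not say whether each library is a different animal, and p-values measure the spread between these libraries, which may be technical.

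ERK is the last kinase of a cascade in which growth factor receptors activate RAS, then RAF, then MEK. Active ERK switches on early genes within minutes and, with more delay, genes whose products damp the same cascade, so their RNA levels are widely read as an output of the pathway. Sprouty and Spred proteins act between receptor and RAF, Dusp6 removes phosphate from ERK itself, and the ETS factors Etv4 and Etv5 are transcribed downstream of FGF signals. In retina, Müller glia respond to growth factors and injury with ERK phosphorylation, but RNA levels do not measure ERK activity. RNA of a whole tissue cannot tell fewer cells of a type from less RNA per cell.

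The libraries held between 29027099 and 30438026 counts. Abca1, which encodes the deleted cholesterol transporter, averaged 36.3 ± 7.91 CPM in 12-month KO retina and 30.8 ± 2.66 CPM in 12-month control retina (SD, n = 3 each; CPM are counts scaled to the size of the library, corrected by TMM). At 3 months it averaged 26.3 ± 1.78 CPM in KO retina and 22.7 ± 3.34 CPM in control retina, and neither difference passed (log2 fold changes of 0.24 and 0.21, adjusted p = 0.65 and 0.70, edgeR quasi-likelihood test). A count over the whole gene and the whole retina does not check a deletion made in glia. Replicate 2 of 3-month control stood apart from its group, with 4033 CPM of 8 lens markers (highest gene Cryaa), against at most 152 CPM in any other library. The rest of 3-month control held 34.4 and 152 CPM, above every library of the other groups (5.90 to 25.6 CPM). Leaving out replicate 2 therefore still leaves the most lens RNA in 3-month control. Replicate 1 of 12-month KO also stood apart: the variance of its differences from the other libraries of its group was 20.5 and 23.6 times that of counting alone, and the other pair gave 4.99. All 3 libraries of 3-month control held 73.5 to 83.7 CPM of 8 skeletal muscle markers (highest gene Acta1), against 5.37 to 9.67 CPM in the other libraries. All 8 passed as lower in KO than in control at 3 months (edgeR, adjusted p below 0.05). Lens and muscle RNA therefore cannot be told apart from genotype at 3 months, nor from age in control retina. The RNA of Xist, which coats the inactive X chromosome, stood at 52.3 to 85.5 CPM in 12-month KO and at most 0.609 CPM in every other library. The Y-linked Ddx3y was at 33.7 to 45.4 CPM in the same 12-month KO libraries, against 30.6 to 38.2 CPM in 12-month control. Whatever sets Xist in these libraries cannot be told apart from the KO genotype at 12 months, nor from age in KO retina, where 12-month and 3-month libraries differ in the same way.

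Compared per base of exon, all 10 genes were expressed at moderate to low levels. The mean over the 12 libraries was highest for Ier3 (47.9 RPKM, CPM per kilobase of merged GENCODE exons) and Spry2 (34.1 RPKM). Erf (11.4 RPKM), Etv5 (10.2 RPKM) and Dusp6 (8.36 RPKM) followed. Etv4, Spred1, Spred2, Spry1 and Spry4 lay between 5.76 and 2.96 RPKM, and the fewest counts of any member in a library were 211, for Spry1.

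**Figure D1:**
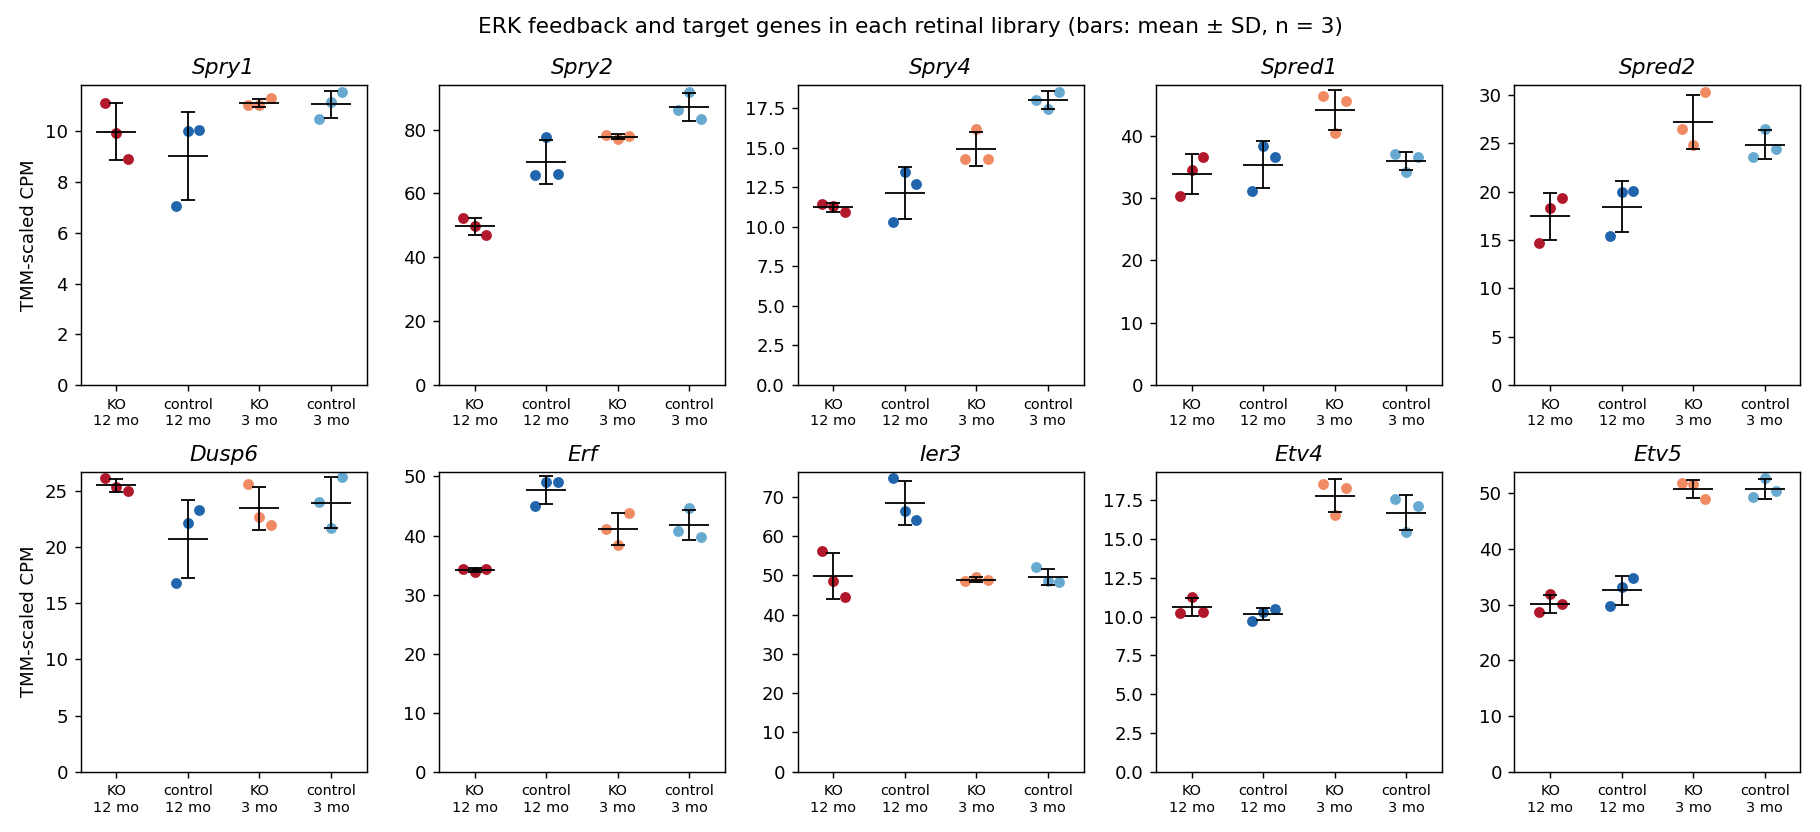
TMM-scaled CPM of the 10 genes in each of the 12 libraries (points), with the group mean and SD (bars, n = 3). Spry2, Erf and Ier3 lie lower in 12-month KO than in 12-month control, and Etv4 and Etv5 lie lower at 12 months than at 3 months in both genotypes.

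Spry2, Erf and Ier3 shared a lower level in 12-month KO than in 12-month control retina, the value they were chosen for. Where their 3-month levels lay differed from gene to gene. The 12-month values that chose these genes enter each of their age differences, which were not tested. Spry2 was below its 3-month level in both genotypes, Erf was lower than at 3 months in KO only and higher in control, and Ier3 was above its 3-month level in control only. Of all genes tested, 0.212% were called between KO and control at 12 months (edgeR, adjusted p below 0.05). Nothing is read from the place of the chosen genes among them. The 8 ganglion cell markers (highest gene Nefl) summed lower in the same KO libraries, at 819 to 864 CPM in 12-month KO and 894 to 940 CPM in 12-month control, and none of the 8 passed. Their median log2 fold change was -0.08. The 5 retinal astrocyte markers summed to 40.8 to 42.2 CPM in 12-month KO and 37.2 to 40.2 CPM in 12-month control, with a median of 0.02. Medians of other lists were 0.36 for pericytes and smooth muscle, 0.22 for endothelium and 0.19 for microglia. They were -0.03 for Müller glia and -0.12 for pigment epithelium. No marker of these lists passed. The part of any of these cell types in the levels of Spry2, Erf and Ier3 was not tested.

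Spry2 (Entrez 24064, chromosome 14 from 105891947 to 105896819, GRCm38) encodes a Sprouty protein that blocks growth factor signals to ERK. It stood at 52.3, 49.8 and 47.1 CPM in the 12-month KO libraries, against 65.7, 77.8 and 66.0 CPM in 12-month control. At 3 months it stood at 78.4, 77.0 and 78.1 CPM in KO and at 86.1, 91.7 and 83.4 CPM in control. Every 12-month KO library lay below all 9 others, and 12-month control overlapped 3-month KO. The log2 fold change of KO over control at 12 months was -0.49 ± 0.08 (SE), and -0.53 without KO replicate 1.

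Erf (Entrez 13875, chromosome 7 from 25242560 to 25251104) encodes an ETS repressor that leaves the nucleus when ERK phosphorylates it. Its levels were 34.3, 33.8 and 34.3 CPM in 12-month KO, against 45.0, 49.0 and 49.0 CPM in 12-month control. The 3-month libraries lay between these groups, at 41.1, 38.4 and 43.8 CPM in KO and 40.8, 44.6 and 39.8 CPM in control, and these 3-month groups overlapped. The log2 fold change at 12 months was -0.48 ± 0.08 (SE), and -0.49 without KO replicate 1.

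Ier3 (Entrez 15937, chromosome 17 from 35821713 to 35822911) is an early response gene whose product is an ERK substrate that prolongs ERK activity. It had 56.1, 48.4 and 44.6 CPM in 12-month KO, against 74.8, 66.4 and 64.2 CPM in 12-month control. The 3-month libraries had 48.4, 49.5 and 48.7 CPM in KO and 52.0, 48.6 and 48.3 CPM in control. Only 12-month control stood clear, since the other 3 groups overlapped each other. The log2 fold change at 12 months was -0.46 ± 0.09 (SE), and -0.56 without KO replicate 1. In the authors' deposited table, whose name gives the same 12-month comparison, log2 fold changes were -0.40 for Spry2, -0.40 for Erf and -0.37 for Ier3.

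The promoters of these 3 genes are shown because their products are counterparts in 1 pathway and their levels were chosen for the same direction. Each run covers 250 bases before to 50 bases after a listed start of the gene (RefSeq, GRCm38.p6), 5′ to 3′ on the gene's strand. For Erf this start lies inside the gene limits given above, which reach to 25251104. The whole Erf window is therefore within the gene. Capitals mark matches, on either strand, to the ETS motif CCGGAAGT or its core CCGGAA, to AP-1 (TGANTCA), to CRE (TGACGTCA) or its short form TGACG, to EGR (GCGNGGGCG) and to the CArG box. The short forms lie inside the longer motifs, so these overlap. The windows are chr14:105896770-105897069 for Spry2 (minus strand), chr7:25250709-25251008 for Erf (minus strand) and chr17:35821463-35821762 for Ier3 (plus strand).
Spry2: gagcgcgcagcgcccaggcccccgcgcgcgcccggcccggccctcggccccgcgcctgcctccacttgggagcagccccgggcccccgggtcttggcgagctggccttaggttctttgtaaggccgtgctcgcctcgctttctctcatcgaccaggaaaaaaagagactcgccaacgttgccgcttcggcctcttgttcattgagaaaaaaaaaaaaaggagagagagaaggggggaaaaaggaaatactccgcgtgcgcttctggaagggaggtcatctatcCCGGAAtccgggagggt
Erf: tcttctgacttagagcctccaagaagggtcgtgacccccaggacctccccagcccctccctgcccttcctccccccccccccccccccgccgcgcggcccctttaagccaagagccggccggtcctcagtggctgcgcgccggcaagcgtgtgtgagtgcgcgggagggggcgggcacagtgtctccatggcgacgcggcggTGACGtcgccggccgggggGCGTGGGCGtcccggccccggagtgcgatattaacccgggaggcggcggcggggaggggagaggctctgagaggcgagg
Ier3: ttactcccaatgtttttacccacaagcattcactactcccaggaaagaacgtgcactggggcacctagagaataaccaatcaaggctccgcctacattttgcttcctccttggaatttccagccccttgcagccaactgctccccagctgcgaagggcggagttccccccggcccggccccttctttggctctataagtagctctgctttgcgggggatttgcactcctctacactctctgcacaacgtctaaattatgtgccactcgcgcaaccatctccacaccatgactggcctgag
The Spry2 window held 1 ETS core, 33 bases after the start, a motif found in 14.9% of 32851 promoters of this length. Counted from its inner start, the Erf window held 1 short CRE form at -48, found in 20.8% of promoters, and 1 EGR match at -29, found in 5.55%. The Ier3 window held none of these letters. Over the 9 windows of the 8 members searched (2 for Etv5), the only other match was a short CRE form of Spred2 at -51, on the opposite strand. The full ETS motif, AP-1, the full CRE and the CArG box, found in 3.89%, 7.81%, 1.79% and 1.63% of promoters, matched in no member searched.

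The other 7 genes showed no shared direction between KO and control at 12 months. Their log2 fold changes ran from -0.11 for Spry4 to 0.30 for Dusp6, 4 of the 7 were negative, and their median was -0.07, against -0.002 over all genes tested. Without KO replicate 1 only Spry4 and Etv5 stayed negative, with Spred1 at 0.008 and Spred2 at 0.028, and without control replicate 1 Spry1 was at -0.008. Dusp6 (Entrez 67603, chromosome 10 from 99263231 to 99267489), which encodes the cytoplasmic ERK phosphatase, stood at 26.1, 25.3 and 25.0 CPM in 12-month KO, against 16.8, 22.1 and 23.3 CPM in 12-month control. The groups did not overlap, and the log2 fold change was 0.30 ± 0.12 (SE), the opposite sign to that of Spry2. Dusp6 in 12-month KO overlapped the 3-month groups, whose libraries lay between 21.7 and 26.2 CPM. Replicate 1 of 12-month control was the lowest of the 12 libraries for Dusp6, Spry1, Spry4 and Etv4. Without it the Dusp6 log2 fold change was 0.17.

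**Figure D2:**
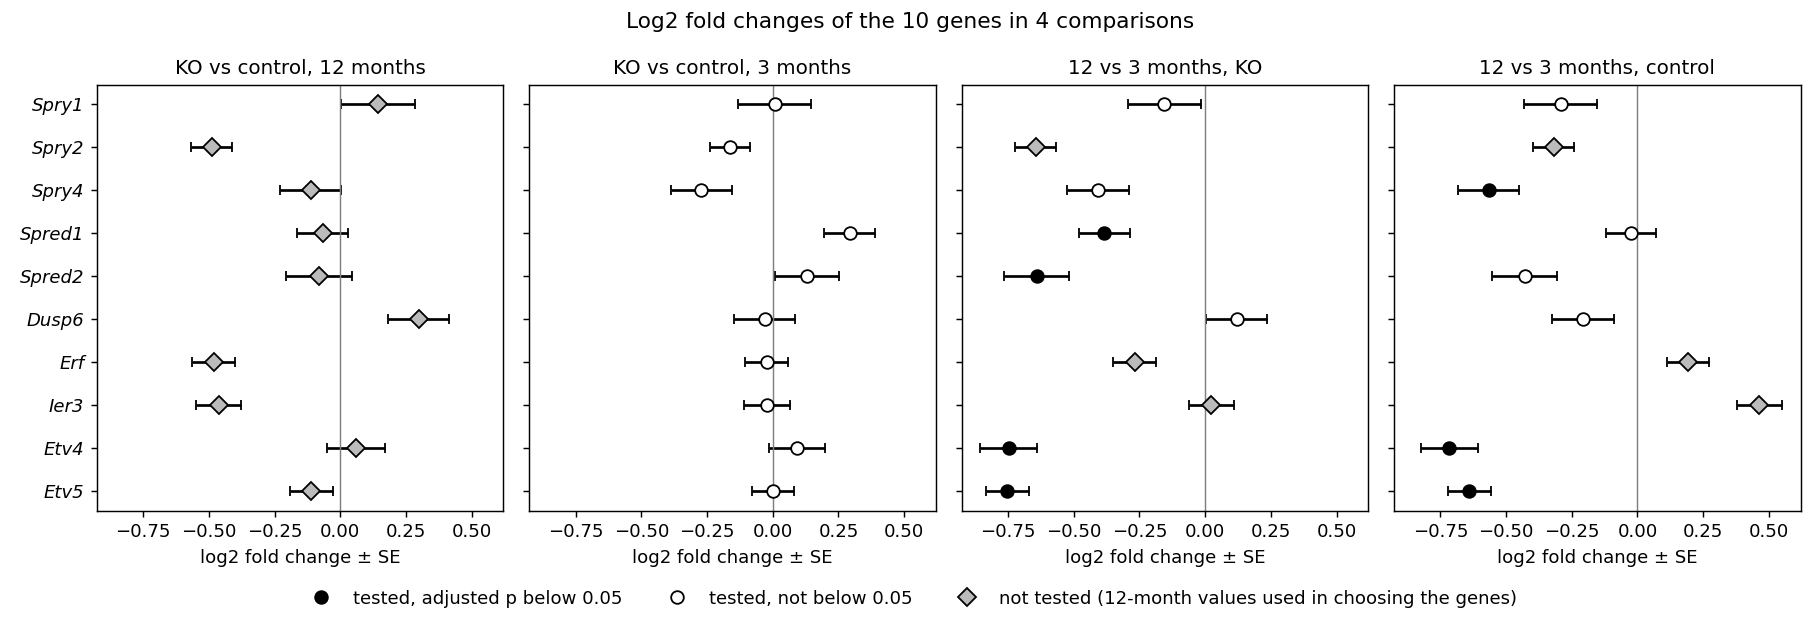
Log2 fold changes with their SE (edgeR, 3 against 3 libraries) of the 10 genes in 4 comparisons. Filled circles passed an adjusted p of 0.05, open circles did not, and grey diamonds were not tested because the 12-month values had a part in choosing the genes. The filled circles are Spred1, Spred2, Etv4 and Etv5 with age in KO, and Spry4, Etv4 and Etv5 with age in control.

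At 3 months, none of the 10 members passed between KO and control, with adjusted p of 0.58 or more (edgeR quasi-likelihood test). Spry2, Erf and Ier3 were chosen by 12-month values, and the other members were listed with earlier results of these data known. Of all genes tested, 0.225% passed, and these included all 8 skeletal muscle markers, which were lower in KO. At an unadjusted p below 0.05 there were 3 members (Spry2, Spry4 and Spred1), and 7.5% of all genes. DESeq2 and limma-voom called 0 of the 10 as well. The median log2 fold change of the members was -0.01, against 0.002 over all genes. Spry2 averaged 77.8 ± 0.743 CPM in KO and 87.1 ± 4.25 CPM in control (SD, n = 3 each), a log2 fold change of -0.16 ± 0.08 (SE) with adjusted p = 0.66 (edgeR). Without the lens-rich control replicate 2 it was -0.12. Erf and Ier3, whose 12-month values were near -0.5, had 3-month log2 fold changes of -0.02 ± 0.08 and -0.02 ± 0.09 (SE), with adjusted p of 0.94 and 0.95 (edgeR). That a difference appears at one age and not at the other was not tested, since the 12-month values chose these genes.

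The widest 3-month differences among the members were those of Spred1 and Spry4, in opposite directions. Spred1 (Entrez 114715, chromosome 2 from 117121071 to 117182279), an inhibitor that recruits neurofibromin to the membrane to turn off RAS, stood at 46.3, 40.4 and 45.5 CPM in KO, against 37.0, 34.2 and 36.6 CPM in control. The groups did not overlap, but the log2 fold change of 0.29 ± 0.10 (SE) had adjusted p = 0.58 (edgeR), and was 0.26 without the lens-rich control replicate 2. Spry4 (Entrez 24066, chromosome 18 from 38586247 to 38601347), another Sprouty inhibitor, stood at 14.3, 16.2 and 14.3 CPM in KO, against 18.04, 17.4 and 18.5 CPM in control. The log2 fold change of -0.27 ± 0.12 (SE) had adjusted p = 0.65 (edgeR), and was -0.29 without that library. Spry1, Spred2, Dusp6, Etv4 and Etv5 had log2 fold changes between -0.03 and 0.13.

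Among the genes not chosen on their values, the ETS factors Etv4 and Etv5 fell with age in both genotypes, with the lowest adjusted p of the members tested. Etv5 (Entrez 104156, chromosome 16 from 22381313 to 22439570) had 28.7, 31.8 and 30.1 CPM in KO retina at 12 months, against 51.8, 51.8 and 48.9 CPM at 3 months. In control retina it had 29.7, 33.2 and 34.8 CPM at 12 months, against 49.3, 52.7 and 50.3 CPM at 3 months. The ages did not overlap, while the genotypes overlapped within each age. Etv5 fell by 0.75 ± 0.08 on the log2 scale in KO (adjusted p = 1.53e-05) and fell by 0.64 ± 0.08 in control (adjusted p = 7.33e-05, edgeR, SE).

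Etv4 (Entrez 18612, chromosome 11 from 101769747 to 101785310), a close relative of Etv5 in the PEA3 group, followed the same course at a lower level. It had 10.2, 11.3 and 10.3 CPM in KO at 12 months, against 18.5, 16.6 and 18.3 CPM at 3 months. Control libraries had 9.72, 10.3 and 10.5 CPM at 12 months, against 17.6, 15.4 and 17.1 CPM at 3 months. Etv4 fell by 0.75 ± 0.11 on the log2 scale in KO (adjusted p = 0.000409) and fell by 0.72 ± 0.11 in control (adjusted p = 0.000589, edgeR, SE). Without the lens-rich replicate 2 of 3-month control, the control values were -0.77 for Etv4 and -0.61 for Etv5, and without replicate 1 of 12-month KO the KO values were -0.72 for both. Both genes passed in both genotypes under every alternative run.

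Of the 7 genes, 4 fell with age in KO and 3 fell with age in control, and none rose. Among all genes tested, 0.832% fell and 1.54% rose with age in KO, and 0.71% fell and 1.4% rose in control. The 7 were listed with earlier results of these data known, so these shares are given as a description. The median log2 fold change of the 7 was -0.41 in KO and -0.43 in control, against -0.0007 and 0.002 over all genes. The inhibitor Spry4 fell by 0.57 ± 0.12 on the log2 scale in control (SE, adjusted p = 0.00886, edgeR), with 10.3, 13.5 and 12.7 CPM at 12 months against 18.04, 17.4 and 18.5 CPM at 3 months. Without replicate 1 of 12-month control its adjusted p was 0.060, and without replicate 2 of 3-month control it was 0.0068. In KO, Spry4 had 11.5, 11.3 and 10.9 CPM at 12 months, against 14.3, 16.2 and 14.3 CPM at 3 months, and its log2 fold change of -0.41 ± 0.12 (SE) had adjusted p = 0.078 (edgeR).

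Spred1 and Spred2 passed in KO retina and not in control retina in the edgeR test. Spred2 (Entrez 114716, chromosome 11 from 19924442 to 20024026) had 14.7, 18.3 and 19.3 CPM in KO at 12 months, against 26.4, 24.9 and 30.2 CPM at 3 months. It fell by 0.64 ± 0.12 on the log2 scale (SE, adjusted p = 0.0061, edgeR). In control it had 15.4, 20.0 and 20.0 CPM at 12 months, against 23.6, 26.5 and 24.4 CPM at 3 months, a log2 fold change of -0.43 ± 0.12 (SE) with adjusted p = 0.087 (edgeR), 0.033 with DESeq2 and 0.031 with limma-voom. Spred1 fell by 0.38 ± 0.10 on the log2 scale in KO (SE, adjusted p = 0.037, edgeR), with 30.3, 34.5 and 36.6 CPM at 12 months against 46.3, 40.4 and 45.5 CPM at 3 months. In control its log2 fold change was -0.02 ± 0.10 (SE, adjusted p = 0.96, edgeR). Whether these age differences are unequal in the genotypes was not tested. The Spred1 call was lost when any 1 of the 3 3-month KO libraries, or replicate 1 or 2 of 12-month KO, was left out (adjusted p of 0.054 to 0.20). The Spred2 call was lost without replicate 3 of 3-month KO (adjusted p = 0.062), and 2 of the 7 then passed in KO. Without replicate 1 of 12-month KO, Spred2 had -0.53 (adjusted p = 0.0295).

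Dusp6 and Spry1 did not pass with age. Dusp6 had log2 fold changes of 0.12 ± 0.12 in KO and -0.21 ± 0.12 in control (SE, adjusted p = 0.75 and 0.51, edgeR). Spry1 (Entrez 24063, chromosome 3 from 37639947 to 37644599), a Sprouty inhibitor, had log2 fold changes of -0.16 ± 0.14 in KO and -0.29 ± 0.14 in control (SE, adjusted p = 0.73 and 0.40, edgeR). For the 3 genes chosen at 12 months, which share these libraries, the age differences are given without a test. Spry2 had log2 fold changes of -0.65 ± 0.08 in KO and -0.32 ± 0.08 in control, Erf of -0.27 ± 0.08 and 0.19 ± 0.08, and Ier3 of 0.02 ± 0.09 and 0.46 ± 0.09 (SE).

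Some marker lists of cell types and other tissues also differed between the ages, in KO, in control or in both. Summed over 8 microglial markers, 12-month libraries held 43.8 to 45.0 CPM in KO and 40.2 to 44.5 CPM in control, against 31.8 to 32.2 CPM in 3-month KO and 28.6 to 32.1 CPM in 3-month control, and 2 of the 7 tested passed as higher with age in KO and 1 in control. The 8 Müller glia markers summed to 4987 to 5155 CPM in 12-month KO, 5147 to 5285 CPM in 12-month control, 4732 to 4793 CPM in 3-month KO and 4858 to 5434 CPM in 3-month control, and 0 of the 8 passed with age in either genotype. The 8 skeletal muscle markers all passed as lower with age in control, and none did in KO. Their sum was high in 3-month control only (73.5 to 83.7 CPM), and not in 3-month KO (6.01 to 9.67 CPM). The 8 lens markers also summed highest in 3-month control (34.4 to 4033 CPM), and none of them passed with age. Of 9 pigment epithelium markers (highest gene Rgr), 1 fell with age in KO and 0 in control, and the median log2 fold changes were -0.53 in KO and -0.60 in control. Their sums were 107 to 144 CPM in 12-month KO against 152 to 192 CPM in 3-month KO, and 121 to 164 CPM in 12-month control against 149 to 238 CPM in 3-month control. Of 6 pericyte and smooth muscle markers (highest gene Pdgfrb), 1 fell in control, where the median was -0.61, and 0 in KO, where it was 0.006. Of 7 rod markers 1 rose, and of 6 cone markers 1 fell, with age in KO. The part of any of these cell types in the age differences was not tested.

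The rest of the pathway was examined through 5 lists that hold none of the 10 members. The lists were drawn up with earlier results of these data known, so their counts are given as a description. Of 19 other ERK targets tested, 4 rose with age in KO and 6 rose in control, and none fell, while 1.54% and 1.4% of all genes rose. The other targets did not pass. Junb, an AP-1 subunit, averaged 86.9 ± 9.11 CPM at 12 months and 53.8 ± 3.00 CPM at 3 months in KO, and 99.0 ± 5.18 CPM at 12 months and 58.3 ± 6.79 CPM at 3 months in control (SD, n = 3 each). It rose by 0.69 ± 0.09 on the log2 scale in KO and by 0.76 ± 0.09 in control (SE, adjusted p = 0.000139 and 3.62e-05, edgeR). The zinc finger factor Egr1 rose by 0.93 ± 0.12 and 0.91 ± 0.12, Fos by 0.36 ± 0.08 and 0.43 ± 0.08, and Ier2 by 0.51 ± 0.12 and 0.72 ± 0.12. In KO the Fos call was lost without any 3-month library or 12-month replicate 3 (adjusted p up to 0.096), and the Ier2 call without any 3-month library or 12-month replicate 1 or 2 (adjusted p up to 0.18). The median of the 19 genes was 0.12 in KO and 0.07 in control, with 8 and 7 of the 19 below 0.

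Of 11 other brakes on the pathway tested, 1 fell with age in KO and 2 fell in control, and none rose, while 0.832% and 0.71% of all genes fell. The list median was -0.16 in KO and -0.01 in control. Spred3, the third Spred gene, averaged 64.7 ± 7.17 CPM at 12 months and 88.6 ± 4.57 CPM at 3 months in KO, and 64.7 ± 5.31 CPM at 12 months and 91.3 ± 3.97 CPM at 3 months in control (SD, n = 3 each). It fell by 0.45 ± 0.09 on the log2 scale in KO and by 0.50 ± 0.09 in control (SE, adjusted p = 0.00467 and 0.00187, edgeR). The nuclear ERK phosphatase gene Dusp4 fell by 0.56 ± 0.09 in control (adjusted p = 0.00117), and its log2 fold change in KO was -0.33 ± 0.09 (adjusted p = 0.064, edgeR).

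None of the 22 core genes from Grb2 to Mapk3, nor of 20 receptor tyrosine kinases, passed with age in either genotype. The core genes with the highest counts, Araf and Map2k2, had log2 fold changes with age of -0.06 and -0.06 in KO and -0.07 and -0.03 in control. The receptors with the highest counts, Igf1r and Kdr, had -0.05 and 0.05 in KO and -0.03 and -0.08 in control. Of 21 growth factor genes, 1 fell in control and none in KO. That gene was Bdnf, the ligand of TrkB, which fell by 0.88 ± 0.16 on the log2 scale (SE, adjusted p = 0.00225, edgeR), to 4.67 ± 0.398 CPM at 12 months against 8.60 ± 1.23 CPM at 3 months (SD, n = 3 each). Its log2 fold change in KO was -0.28 ± 0.15 (SE, adjusted p = 0.46). Between KO and control, no gene of the 5 lists passed at either age, and the widest 12-month values among the list genes named here were -0.51 ± 0.12 for Ier2 and 0.51 ± 0.16 for Bdnf (SE, adjusted p = 0.10 and 0.29, edgeR).

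**Figure D3:**
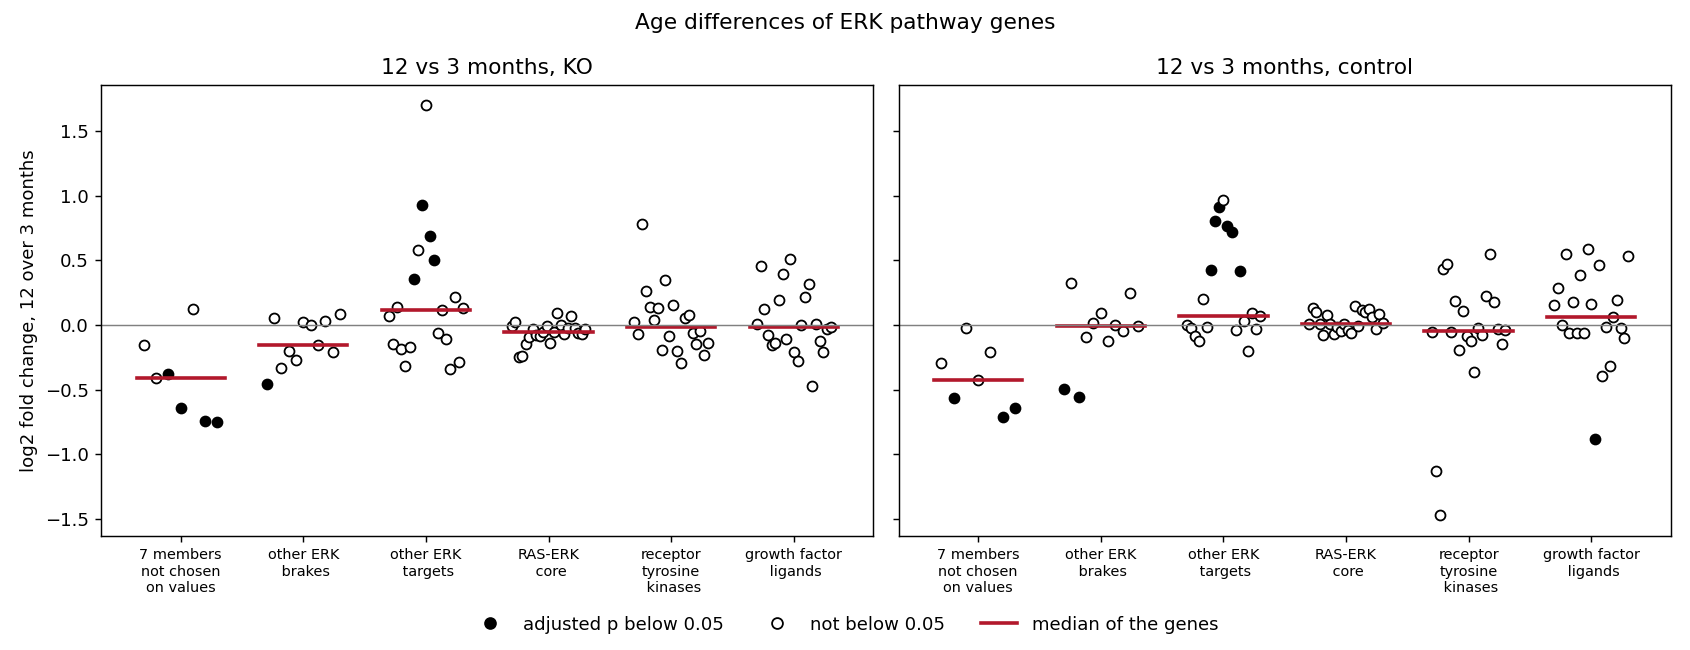
Log2 fold changes of 12 over 3 months in KO (left) and control (right) for the 7 members not chosen on their values and for 5 pathway lists. Each point is a gene, filled where its adjusted p was below 0.05 (edgeR), and the red line is the median. Filled points lie below 0 among the members and brakes and above 0 among the other ERK targets.

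The genes whose levels most resembled those of Spry2, Erf and Ier3 over the 12 libraries differed from gene to gene. Among 14346 genes with a mean of at least 1 CPM, those nearest to Spry2 were Snrk, Usp21 and Efnb3 (Pearson r of 0.94 each on log2 CPM). Snrk averaged 226 CPM in 12-month KO, 278 CPM in 12-month control, 299 CPM in 3-month KO and 342 CPM in 3-month control. Nearest to Erf were Drd2 (r = 0.95), Kcnj14 and Ip6k1 (0.94 each). Kcnj14 averaged 871 CPM in 12-month KO, 1012 CPM in 12-month control, 978 CPM in 3-month KO and 976 CPM in 3-month control, the order of Erf in its 12-month groups. Nearest to Ier3 were Vegfa (0.92), Fam110a (0.90) and Gm2694 (0.89). Vegfa, which encodes an endothelial growth factor, averaged 264 CPM in 12-month KO, 276 CPM in 12-month control, 263 CPM in 3-month KO and 264 CPM in 3-month control, a narrower range than that of Ier3. These are the highest of many correlations over libraries that share groups and depth, and they are given as a description.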

How the data were processed

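Per the labels' protocols, stranded poly(A) libraries were made from retinal RNA. Per the submitters' processing notes, HISAT2 2.1.0, featureCounts 1.6.4, DESeq2 1.22.1 and GRCm38 were used. For each library the authors deposited 1 table of raw read counts, keyed by Entrez ID. They also deposited a 12-month table without a header, read as a mean normalized count (a signal value), log2 fold change, standard error and Wald score, and p-values. The strand setting and the handling of multiple alignments were not stated in the sources used here. GENCODE M21 places a gene model of the other strand over Spry1 and 2 small RNA models of the other strand over Spry4. Without the strand setting it is not known whether reads of these models were kept apart. Even numbers made up 60.7% to 70.2% of counts from 1 to 20, so reads of a pair may have been counted separately.

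Of the gene IDs, 25275 were named from RefSeq (GRCm38.p6). Counts were analysed with edgeR 4.0.16 in R 4.3.3: filterByExpr, TMM scaling and robust quasi-likelihood tests with 1 coefficient per group over all 12 libraries, adjusted by Benjamini-Hochberg over 16475 genes. Replicate libraries differed by 3.45 to 40.7 times the counting variance, so none was a copy. In simulated counts for KO against control at 3 months (16276 genes tested), 62.7% of 59 genes changed 1.5-fold were recovered, 75.7% of 74 changed 2-fold and 95.5% of 66 changed 4-fold, with 16 unchanged genes among 172 calls. The share of unchanged genes among these calls was above the adjusted p threshold of 0.05. No smaller change was simulated, and the widest 3-month fold of a member was 1.23 (Spred1). The simulation therefore gives no recovery rate for differences of the size seen in the members at 3 months.

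Alternatives were other scaling, filters and thresholds, DESeq2 1.42.0, limma 3.58.1 (voom), fewer libraries, halved counts, library sizes without genes of other tissues, a replicate block and each library left out. The members and lists were chosen with earlier results of these data known. Named genes are the members, up to 4 passing genes of each pathway list and comparison with the smallest adjusted p or otherwise the 2 with the highest mean CPM, the 3 genes most like each chosen member, Abca1, Xist, Ddx3y and the highest gene of a marker list. Sequences are from RefSeq. Etv4 has no entry in the promoter table, and the Spry4 promoter was not used here. The sums of 1 list of retinal cell markers are not reported here.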

Additional observations from a re-analysis of the deposited data

Results flagged for a closer look

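Erf moved in opposite directions with age in the 2 genotypes. Each of the 3 12-month KO libraries (33.8 to 34.3 CPM) lay below each 3-month KO library (38.4 to 43.8 CPM), a log2 fold change of -0.268. Each 12-month control library (45.0 to 49.0 CPM) lay above each 3-month control library (39.8 to 44.6 CPM), a log2 fold change of 0.191. The difference was not tested, since Erf was chosen by its 12-month values, which enter both comparisons. Without replicate 1 of 12-month KO the KO value was -0.27, and without the lens-rich replicate 2 of 3-month control the control value was 0.24.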

How the results depend on the processing

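Counts over all genes depended on the tool and on single libraries, and small fold changes of members moved with single libraries too. With DESeq2, 63 genes passed between KO and control at 3 months, 127 at 12 months, 583 with age in control and 596 with age in KO, and limma-voom gave 79, 186, 773 and 1319, against 37, 35, 347 and 390 in edgeR. A filter of at least 1 CPM in 6 libraries gave 21 at 3 months, no filter gave 64 at 12 months, a threshold of 0.1 gave 66 at 12 months and 560 with age in control, and fitting only the 6 libraries compared gave 198 with age in control. With 1 library left out, the counts ran from 21 (without replicate 3 of 3-month KO) to 41 at 3 months, from 13 (without replicate 2 of 12-month control) to 52 at 12 months, from 201 (without replicate 2 of 12-month control) to 440 with age in control and from 187 (without replicate 3 of 3-month KO) to 367 with age in KO. At 12 months 15 passed without replicate 3 of KO and 23 without replicate 1 of control, and with age in KO 217 and 190 passed without replicates 1 and 2 of 3-month KO and 228 without replicate 2 of 12-month KO.

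Of the members, 0 passed at 3 months under any alternative, 2 to 3 of the 7 fell with age in control with 1 library left out, and 2 to 4 of the 7 in KO. Of 832 values of members and named genes under an alternative, 793 kept their sign and call or moved by less than the replicate spread. These include members far from passing that stayed so. They also include the library sizes without genes of other tissues, which could hardly differ, since TMM scaling offsets such a change. That alternative gave 37, 35, 347 and 390 calls, as in the main fit. Values near 0 changed sign at 3 months without passing. With upper quartile scaling Spry1 was -0.005 and Etv5 -0.011, with limma-voom Erf was 0.019, and Etv5 was -0.005 without a filter and with the stricter one and -0.004 with halved counts. With 1 library left out, Spry1 ran from -0.03 to 0.038, Dusp6 from -0.1 to 0.038, Erf from -0.078 to 0.028, Ier3 from -0.041 to 0.013 and Etv5 from -0.019 to 0.029, and Spred1 with age in control ran from -0.087 to 0.059. The causes were not tested.

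Replicate numbers did not pair the libraries: 2 of 18 same-numbered pairs had correlated deviations above 0.1 (r from -0.178 to 0.236). With the replicate number as a block, 38, 40, 317 and 368 genes passed in the 4 comparisons, Spred2 with age in control passed (adjusted p = 0.0498) and no other call of a member or named gene changed. Spred2 also passed there with DESeq2 and limma-voom (adjusted p = 0.033 and 0.031), as did Spry4 with age in KO (adjusted p = 0.027 and 0.014).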
